A study of Brachypodium distachyon with 8 samples.

Results

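Cellulose, the load-bearing polymer of plant cell walls, is made at the plasma membrane by complexes of several CESA proteins, the catalytic subunits of cellulose synthase. The 6 *CESA* genes described here were picked by identifier from the 27830 gene identifiers that each library of *Brachypodium distachyon* lists. No cut-off on their values was used, but earlier results of these data were known when they were chosen. *CESA1* (BRADI2G34240), *CESA3* (BRADI1G54250) and *CESA6* (BRADI1G53207) form the primary wall set, and *CESA4* (BRADI3G28350), *CESA7* (BRADI4G30540) and *CESA8* (BRADI2G49912) form the secondary wall set. The files pair no gene name with these identifiers, so names and sets are those of the selection rule, and other members of the family were not analysed here.

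In Arabidopsis, where the assignment was worked out genetically, a complex with CESA1, CESA3 and a CESA6-type subunit builds the thin wall of growing cells, and a complex of CESA4, CESA7 and CESA8 builds the thick wall laid down in xylem vessels and fibres after growth has ended. Each class of subunit in a complex is needed, and in rice, loss of a secondary wall subunit gives brittle culms. In a grass leaf, secondary walls are found in the xylem of the veins and in the sclerenchyma fibres beside them, whereas every cell has had a primary wall.

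RNA came from leaves of the inbred line Bd21-3, pooled from several plants, and was sequenced as mRNA in 8 libraries, 2 in each of 4 groups. The groups are wild type (WT) sprayed with a mock solution, WT sprayed with methyl jasmonate (MeJA, the volatile ester of the wound and defence hormone jasmonic acid), MTL-OX sprayed with the mock solution and MTL-OX sprayed with MeJA. MTL-OX is the labels' name for plants that carry an overexpression vector with the Brachypodium gene *LITTLE NINJA* (*LNJ*), a microProtein that binds the jasmonate co-repressor adaptor NINJA. The transgenic line or lines that gave the sequenced samples are not given in the sources used here, and the study's methods call the 2 samples of a group biological replicates. Whether they came from separate plantings is not given.

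The genotype labels could not be reconciled with the data. *LNJ* (BRADI1G69970) was at 581 to 762 FPKM (the number of fragments corrected for transcript length and for the depth of a library) in the 4 libraries labelled WT, at 0 in 3 of the 4 labelled MTL-OX and at 0.834 in the fourth. The names of the deposited tables give every library the other genotype. Groups below are those of the labels, written "labelled WT" and "labelled MTL-OX", and the direction of every difference between genotypes turns if the table names are right. Comparisons of MeJA with mock keep their direction under both readings, but the genotype they are credited to changes. The libraries held 13452995 to 15821699 implied fragments, and log2(FPKM + 1) correlated at 0.949 to 0.983 between the libraries of a group and at 0.923 to 0.973 between groups. Marker genes of leaf mesophyll, xylem or dividing cells could not be matched to identifiers, so whether the share of vein or fibre tissue differed between libraries was not tested. In RNA of whole leaves, fewer cells of a type and less RNA per cell cannot be told apart.

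All 6 genes were expressed in every library, with 357 to 3463 implied fragments behind a value. The secondary wall genes were as abundant in these leaves as *CESA1* and *CESA3*. They varied far more only through mock replicate 6 labelled MTL-OX. In the other libraries *CESA4* ran from 15.8 to 40.7 FPKM, *CESA7* from 13.6 to 33.5 and *CESA8* from 22.5 to 49.9. There *CESA1* ran from 19.7 to 45.4 and *CESA3* from 22.1 to 36.6. Over the 8 libraries the mean FPKM was 33.8 for *CESA8*, 29.4 for *CESA1*, 27.9 for *CESA3*, 26.9 for *CESA4*, 22.4 for *CESA7* and 7.93 for *CESA6*. These means were higher than those of 82.1%, 80.0%, 79.1%, 78.4%, 75.3% and 49.0% of the 14922 genes tested. In this order the ranges of all neighbours overlapped over the libraries, although *CESA6* was the lowest of the 6 within each library.

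*CESA1*, a subunit that Arabidopsis cannot replace with another family member, lies on chromosome 2 from 34291546 to 34297400 in the coordinates of the files, whose assembly is not given in the sources used here. It was at 19.7 and 39.3 FPKM in the mock libraries labelled WT (replicates 1 and 2), 21.4 and 22.3 in their MeJA libraries (3 and 4), 45.4 and 19.7 in the mock libraries labelled MTL-OX (5 and 6) and 35.9 and 31.2 in their MeJA libraries (7 and 8). The highest and the lowest values thus both came from mock-treated plants, and the treatments overlapped in each labelled genotype.

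*CESA3*, the other subunit without a substitute in Arabidopsis, lies on chromosome 1 from 52628358 to 52634047. Its FPKM, in the same order of libraries, was 22.1 and 34.2, 22.7 and 23.9, 36.6 and 19.2, and 31.4 and 33.3. Mock replicates 2 and 5 were again the highest and mock replicate 6 was the lowest, and the range of 1.91-fold was the narrowest of the 6 genes. *CESA6*, a member of the subunit class in which Arabidopsis has several interchangeable genes, lies on chromosome 1 from 51572150 to 51577793. It was at 4.97 and 9.80, 5.86 and 6.04, 12.0 and 4.76, and 10.2 and 9.86 FPKM. Mock replicate 5 was again the highest and mock replicate 6 the lowest, and *CESA6* was the lowest of the primary wall genes in all 8 libraries, with 10.6% to 13.3% of their summed FPKM. *CESA1* held 42.0% to 48.3% and *CESA3* 39.0% to 47.2%, and these 2 changed places from library to library.

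*CESA4* lies on chromosome 3 from 29680780 to 29684720, and the one annotated locus that overlaps it was listed at 0 in every library. Its FPKM was 15.8 and 32.3 in the mock and 26.8 and 23.9 in the MeJA libraries labelled WT, and 30.8 and 5.82 in the mock and 39.1 and 40.7 in the MeJA libraries labelled MTL-OX. Mock replicate 6 stood far below all others, and the 2 MeJA libraries labelled MTL-OX were above all others. *CESA7* lies on chromosome 4 from 36294630 to 36299046. It was at 13.6 and 25.9, 21.3 and 19.2, 27.7 and 5.42, and 32.8 and 33.5 FPKM. *CESA8* lies on chromosome 2 from 49912312 to 49917575 and was at 22.5 and 37.7, 36.1 and 32.6, 37.2 and 7.42, and 46.6 and 49.9 FPKM. All 3 genes, whose products are obligate partners in one complex in Arabidopsis, had the same lowest library and the same 2 highest, over ranges of 6.99-fold, 6.19-fold and 6.73-fold.

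**Figure D1:**
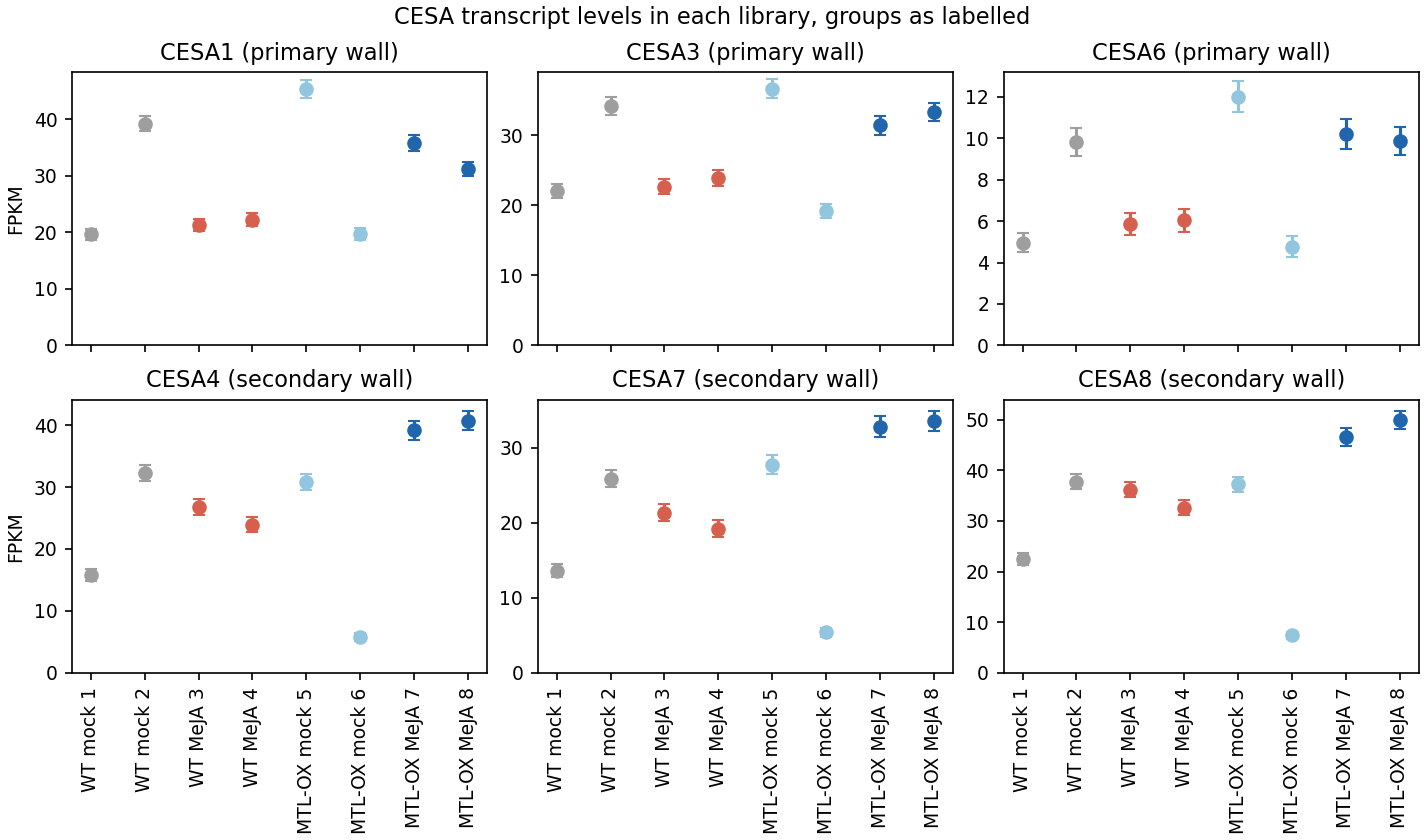
FPKM of the 6 *CESA* genes in each of the 8 libraries (points, labelled by genotype, treatment and replicate), with the deposited confidence bounds of each value (bars). Mock replicate 6 labelled MTL-OX is the lowest library for *CESA4* (5.82), *CESA7* (5.42) and *CESA8* (7.42), and the MeJA libraries lie close together within each labelled genotype.

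Within the secondary wall set the proportions hardly moved while the total did. *CESA8* was above *CESA4* and *CESA4* above *CESA7* in 8 of 8 libraries. FPKM is scaled for transcript length, so levels can be set side by side between genes. *CESA4* held 30.5% to 33.7% of the summed FPKM of the set, *CESA7* 25.3% to 29.0% and *CESA8* 38.9% to 43.3%, although the geometric mean of the set ran from 6.16 to 40.8 FPKM.

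The genes varied together with their own set and less with the other. Over the 8 libraries Pearson's r of log2(FPKM + 1) was 0.987 to 0.997 between the secondary wall genes, 0.962 to 0.983 between the primary wall genes and 0.604 to 0.838 between a gene of one set and a gene of the other. These are descriptions over libraries that share groups. Without mock replicate 6 labelled MTL-OX, which stretches the range of the secondary set, r was 0.970 to 0.990, 0.971 to 0.983 and 0.606 to 0.883 over 7 libraries. As deviations from the group means, which leave treatment and genotype out, r between the sets was 0.913 to 0.974. With 2 libraries a group this rests on the wide gaps of the mock groups, where all 6 genes were higher in the same library. In the MeJA group labelled WT the 3 primary wall genes were higher in replicate 4 and the 3 secondary wall genes in replicate 3, over small gaps. In the MeJA group labelled MTL-OX the primary set was split. *CESA1* and *CESA6* were higher in replicate 7, and *CESA3* and the 3 secondary wall genes in replicate 8.

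**Figure D2:**
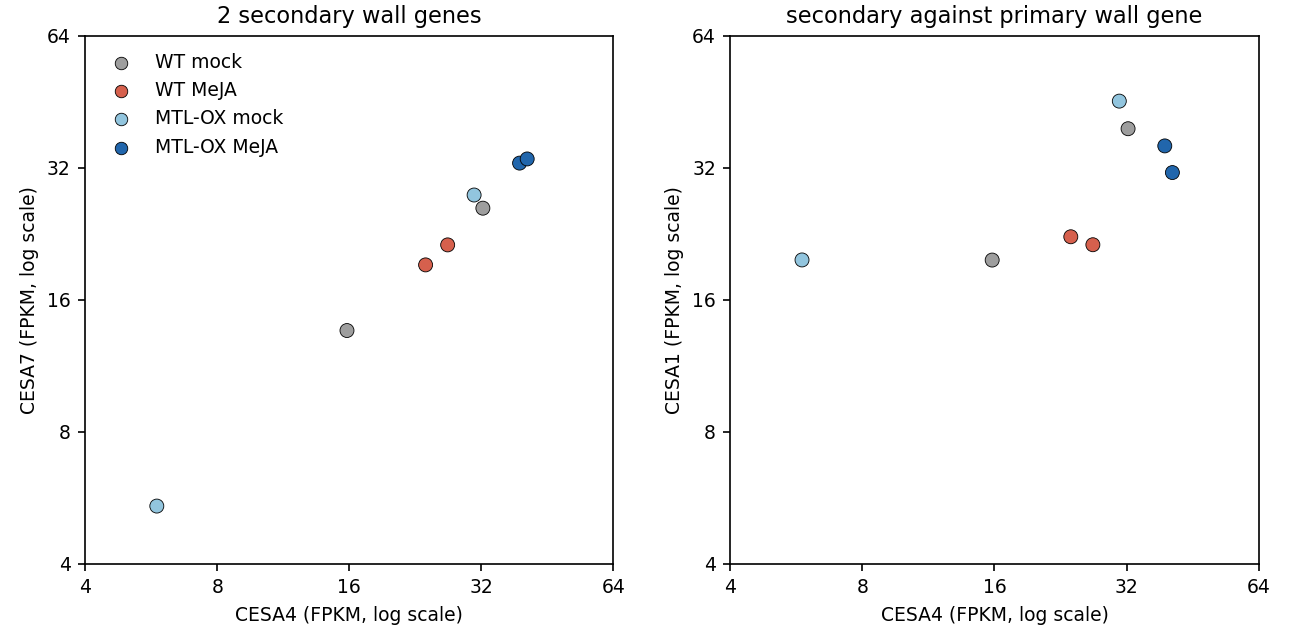
FPKM of *CESA7* (left) and of *CESA1* (right) against that of *CESA4*, on log axes, 1 point per library, coloured by labelled group. The 2 secondary wall genes fall near a line (r = 0.997), and *CESA1* scatters more against *CESA4* (r = 0.678).

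Partners also ranked high among all other genes above a minimum level. Among 9656 other genes with a mean of at least 5 FPKM, *CESA7* was the gene most like *CESA4* (r = 0.997), *CESA4* was the gene most like *CESA8*, and *CESA3* was the gene most like *CESA6* (r = 0.983). The ranks of partners within a set ran from 1 to 7, and those of genes of the other set from 98 to 1250. When mock replicate 6 labelled MTL-OX was left out, *CESA4* ranked 3 for *CESA8* and *CESA3* ranked 2 for *CESA6*, and the ranks of partners ran from 1 to 12. Apart from the 6 members, the gene most like the mean profile of the secondary set was BRADI1G59880 (chromosome 1, 58804327 to 58806320), with r = 0.995 and 12.0 to 55.2 FPKM. The next was BRADI2G12370 (chromosome 2, 10717747 to 10721958) with r = 0.991. For the primary set these were BRADI1G06290 (chromosome 1, 4220418 to 4224204) with r = 0.967 and 8.88 to 20.6 FPKM, and BRADI3G05510 with r = 0.960. The reference annotation used here could not be linked to the identifiers of this series, so these 4 genes could not be named. Whether any of them belongs to the cellulose synthase family was not checked. With mock replicate 6 labelled MTL-OX left out, neither of the 2 genes named for the primary set was among its top 3, and for the secondary set BRADI1G59880 was second and BRADI2G12370 was not among the top 3. After scaling by median ratios BRADI3G05510 led for the primary set, without BRADI1G06290 in the top 3, and BRADI1G59880 led for the secondary set, without BRADI2G12370 in the top 3. An r above 0.95 was reached by 27 of 9651 genes for the secondary and by 10 for the primary set, by 26 and 23 without that library, and by 34 and 16 after scaling.

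The spread between replicates was large in mock-treated plants and smaller after MeJA. In the mock group labelled MTL-OX the 2 libraries differed 5.29-fold for *CESA4*, 5.12-fold for *CESA7* and 5.02-fold for *CESA8*, and 1.91-fold to 2.52-fold for the primary wall genes. On the log2(FPKM + 1) scale the gaps of the secondary wall genes, 2.22, 2.16 and 2.18, were larger than those of 99.2%, 99.1% and 99.2% of the genes tested, whose median gap in that group was 0.253. In the mock group labelled WT the 6 genes differed 1.55-fold to 2.04-fold, gaps larger than those of 89.9% to 97.2% of genes. In the MeJA groups none of the 6 genes differed by more than 1.15-fold. These gaps were larger than those of 15.5% to 58.9% of genes in the group labelled WT. In the group labelled MTL-OX the share was 7.3% to 44.1%. The *CESA* genes thus marked the mock libraries as unlike each other more than most genes did, and every comparison with mock below rests on these 4 libraries. Harvest time, leaf age and position were not given per library, and their part in this spread was not tested.

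The first comparison asks what MeJA did to the 6 genes in libraries labelled WT, and no gene passed the test. On the log2(FPKM + 1) scale the fitted differences of the primary wall genes, MeJA minus mock, were -0.34 ± 0.43 (SE) for *CESA1*, -0.23 ± 0.32 for *CESA3* and -0.21 ± 0.41 for *CESA6*. Those of the secondary wall genes were 0.15 ± 0.67 for *CESA4*, 0.10 ± 0.64 for *CESA7* and 0.23 ± 0.64 for *CESA8*. The adjusted p from limma (Benjamini-Hochberg over all 14922 genes) was 1 for each, so 0 of 6 genes passed the threshold of an adjusted p of 0.05 with a 2-fold change, where 0.0335% of all genes did. By an unadjusted p under 0.05, limma and limma's voom on implied fragments also gave 0 of 6, where limma gave 5.99% of all genes. In 0 of 6 genes were both MeJA libraries above both mock libraries, against 23.9% of all genes.

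In libraries labelled MTL-OX the 3 secondary wall genes had the larger values after MeJA, though none passed the test. *CESA4* averaged 39.9 ± 1.13 FPKM (SD, n = 2) after MeJA and 18.3 ± 17.7 in mock, *CESA7* 33.2 ± 0.513 and 16.6 ± 15.8, and *CESA8* 48.3 ± 2.37 and 22.3 ± 21.1. The fitted log2 differences were 1.47 ± 0.67 (SE), 1.33 ± 0.64 and 1.46 ± 0.64, with adjusted p of 0.292, 0.312 and 0.277 by limma and unadjusted p of 0.0647, 0.0787 and 0.0567. A larger log2 difference was found in 1.11%, 1.43% and 1.13% of the genes tested.

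The primary wall genes had much smaller differences in the same libraries, 0.15 ± 0.43 for *CESA1*, 0.27 ± 0.32 for *CESA3* and 0.35 ± 0.41 for *CESA6*. After scaling by median ratios, which moved the median of all genes in this comparison from 0.185 to -0.01, *CESA1* was at -0.07, the median of the primary set was 0.05 and that of the secondary set 1.23. Both MeJA libraries were above both mock libraries for *CESA4*, *CESA7* and *CESA8* and for no primary wall gene, but 40.4% of all genes did the same. None of the 6 was among the 0.0737% of genes called. By an unadjusted p under 0.05 limma and voom gave 0 of 6 here too, where limma gave 18.9% of all genes. The differences of the secondary wall genes rested on mock replicate 6, without which they were 0.36, 0.25 and 0.36. Those of *CESA1*, *CESA3* and *CESA6* were then -0.43, -0.18 and -0.24. With mock replicate 5 left out instead, the secondary wall genes were at 2.58, 2.41 and 2.55. *CESA1*, *CESA3* and *CESA6* were then at 0.73, 0.72 and 0.94.

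Over both labelled genotypes, 4 MeJA against 4 mock libraries, the fitted difference of each gene is the mean of those in the labelled genotypes. It is therefore no separate result. The secondary wall genes were at 0.10 to 0.23 in libraries labelled WT and at 1.33 to 1.47 in those labelled MTL-OX. The primary wall genes were at -0.34 to -0.21 and at 0.15 to 0.35. The fitted log2 difference was 0.81 ± 0.49 (SE) for *CESA4*, 0.72 ± 0.47 for *CESA7* and 0.84 ± 0.47 for *CESA8*, with limma adjusted p of 0.442, 0.479 and 0.404. For *CESA1*, *CESA3* and *CESA6* it was -0.09 ± 0.29, 0.02 ± 0.23 and 0.07 ± 0.29, and the latter 2 turned to -0.11 and -0.05 after scaling by median ratios. No member was called, where 0.188% of all genes were. At an unadjusted p under 0.05 limma and voom gave 0 of 6, where limma gave 16.5% of all genes. In 0 of 6 genes were all 4 MeJA libraries above all 4 mock libraries, against 6.97% of all genes. Without mock replicate 6 labelled MTL-OX the differences of *CESA4*, *CESA7* and *CESA8* were 0.24, 0.16 and 0.28. With mock replicate 5 left out instead, they were 1.13, 1.03 and 1.16.

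Set against each other within a library, the 2 sets did separate the treatments. The ratio of the geometric mean FPKM of the secondary set to that of the primary set does not depend on how libraries are scaled. It was 1.31 and 1.34 in the mock and 1.94 and 1.67 in the MeJA libraries labelled WT, and 1.17 and 0.506 in the mock and 1.73 and 1.88 in the MeJA libraries labelled MTL-OX. All 4 MeJA libraries, at 1.67 to 1.94, were thus above all 4 mock libraries. The mean log2 ratio was 0.850 ± 0.101 (SD, n = 4) after MeJA and 0.0122 ± 0.669 in mock, a difference of 0.84 or 1.79-fold. It was 1.36-fold in libraries labelled WT and 2.35-fold in those labelled MTL-OX, where it was 1.55-fold without mock replicate 6.

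This ratio was chosen after the values were seen and is a score over the members, so no p is given. Without mock replicate 6 labelled MTL-OX the log2 difference was 0.51, and without the lowest mock library of each labelled genotype 0.53. With *CESA6* left out it was 0.88, and with sums in place of geometric means 0.87. *CESA4*, *CESA7* and *CESA8* each separated the treatments in the same way when divided by the primary set, which 1.53% of all genes did, and because these 3 genes moved together they count as little more than 1 observation. In libraries labelled WT the geometric mean of the primary set was 18.3 FPKM in mock and 14.5 after MeJA, while that of the secondary set was 24.2 and 26.0. In libraries labelled MTL-OX the primary set was at 19.7 and 22.1, and the secondary set at 18.9 and 40.0. With mock replicate 6 left out, the mock values were those of replicate 5 alone, 27.1 for the primary and 31.7 for the secondary set. By these means the primary set was then lower and the secondary set higher after MeJA in both labelled genotypes. With mock replicate 5 left out instead, the mock values were those of replicate 6 alone, 12.2 for the primary and 6.16 for the secondary set. Both sets were then higher after MeJA in libraries labelled MTL-OX. In libraries labelled WT, however, mock replicates 1 and 2 lay on either side of both MeJA libraries. They were at 12.9 and 23.6 FPKM for the primary and 16.9 and 31.6 for the secondary set. Without mock replicate 1 labelled WT, the fitted log2 differences after MeJA there were -0.34 for *CESA4*, -0.34 for *CESA7* and -0.13 for *CESA8*.

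**Figure D3:**
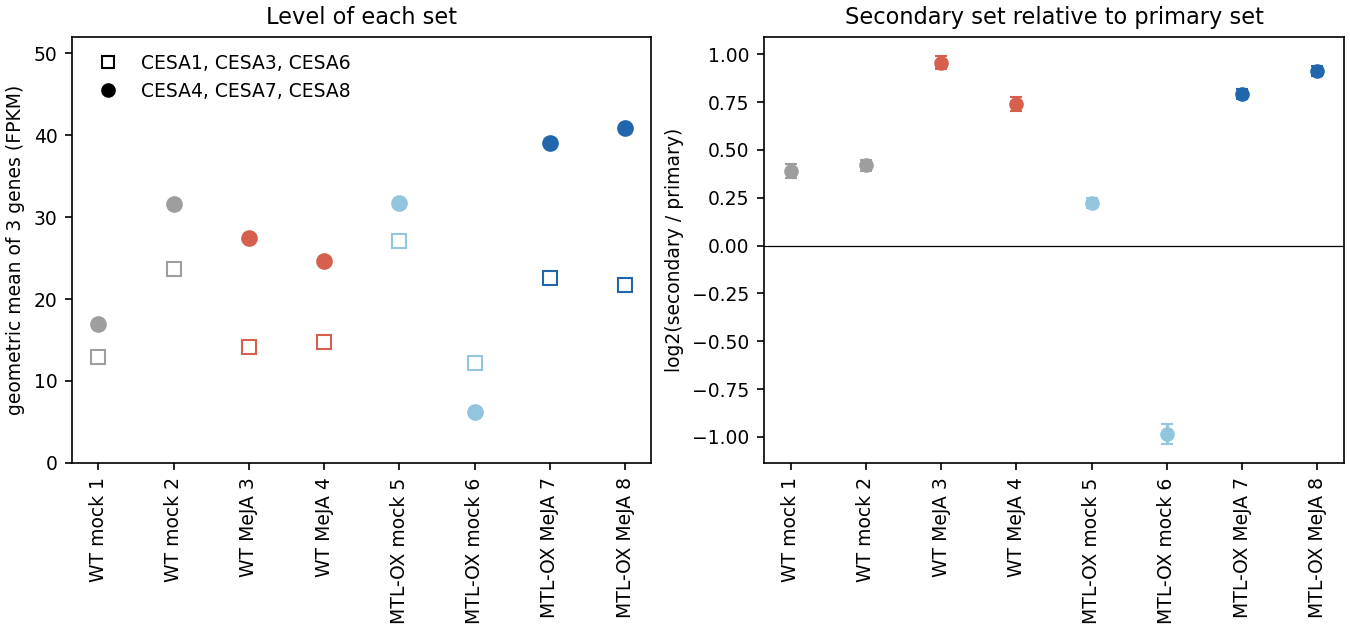
Geometric mean FPKM of the secondary (filled) and the primary (open) wall set in each library (left), and the log2 of their ratio with its standard error from counting alone (right). The log2 ratio is 0.74 to 0.96 in the 4 MeJA libraries and -0.98 to 0.42 in the 4 mock libraries, while the levels of the sets overlap between treatments.

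The genotypes were also compared within the MeJA-treated groups, a comparison added after the levels were seen that shares its libraries with those above. All 6 genes were higher in both MeJA libraries labelled MTL-OX than in both labelled WT, which 24.7% of all genes were. *CESA1* averaged 33.5 ± 3.31 FPKM (SD, n = 2) in the libraries labelled MTL-OX and 21.8 ± 0.646 in those labelled WT, *CESA3* 32.3 ± 1.32 and 23.3 ± 0.864, and *CESA6* 10.0 ± 0.236 and 5.95 ± 0.127. *CESA4* averaged 39.9 ± 1.13 and 25.4 ± 2.07, *CESA7* 33.2 ± 0.513 and 20.3 ± 1.50, and *CESA8* 48.3 ± 2.37 and 34.4 ± 2.50. The higher libraries are those in which *LNJ* was at or near 0, and the ratio of the sets did not separate them, with means of 1.81 ± 0.105 and 1.80 ± 0.190.

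In the fit of all 8 libraries these log2 differences were 0.46 to 0.68, with a median of 0.60 for the primary and 0.64 for the secondary set and of -0.01 for all genes. After scaling by median ratios the set medians were 0.62 and 0.66. None was among the 0.0536% of genes called, and the limma adjusted p was 0.434 to 0.732 with a spread estimated over mock and MeJA libraries. By an unadjusted p under 0.05 limma and voom gave 0 of 6, where limma gave 17.0% of all genes.

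In a fit of the 4 MeJA libraries alone, chosen after the values were seen, the standard errors fell to 0.127 to 0.139. The unadjusted p was then under 0.05 for 6 of 6 genes, as for 23.5% of all genes, and the limma adjusted p was 0.0868 for *CESA6*, 0.087 for *CESA7*, 0.09 for *CESA4*, 0.0977 for *CESA1*, 0.125 for *CESA3* and 0.126 for *CESA8*. None passed the threshold. In mock plants the labelled genotypes overlapped for every member, and each held 1 high and 1 low library.

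Over both treatments no member passed the test between the labelled genotypes. The log2 difference, labelled MTL-OX minus labelled WT, was 0.35 ± 0.29 (SE) for *CESA1*, 0.21 ± 0.23 for *CESA3* and 0.39 ± 0.29 for *CESA6*, with limma adjusted p of 0.475, 0.597 and 0.413. It was -0.02 for *CESA4*, which turned to 0.10 after scaling by median ratios, 0.07 for *CESA7* and -0.14 for *CESA8*, with adjusted p of 0.881 to 0.982. The share of all genes called by limma was 1.11%, and 0 of 6 members were called. By limma or voom 0 of 6 reached an unadjusted p under 0.05, where 29.1% of all genes did by limma. Without mock replicate 6 labelled MTL-OX the differences of the secondary wall genes were 0.55, 0.62 and 0.42 and those of *CESA1*, *CESA3* and *CESA6* 0.63, 0.44 and 0.68, with a lowest limma adjusted p of 0.0538 for *CESA6*.

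The difference between the MeJA responses, labelled MTL-OX minus labelled WT, was positive for all 6 genes and passed the test for none. It was 1.32 ± 0.95 (SE) for *CESA4*, 1.23 ± 0.91 for *CESA7* and 1.23 ± 0.90 for *CESA8*, and 0.49 ± 0.61, 0.51 ± 0.45 and 0.56 ± 0.58 for *CESA1*, *CESA3* and *CESA6*. The median was 1.23 in the secondary and 0.51 in the primary set, beside 0.153 for all genes. The limma adjusted p was 0.835 for *CESA4*, and 0.0134% of all genes were called. At an unadjusted p under 0.05 limma and voom gave 0 of 6, where limma gave 6.34% of all genes. Without mock replicate 6 labelled MTL-OX *CESA4*, *CESA7* and *CESA8* were at 0.21, 0.15 and 0.14, and *CESA1*, *CESA3* and *CESA6* at -0.09, 0.06 and -0.03. With mock replicate 5 left out instead, *CESA4*, *CESA7* and *CESA8* were at 2.43, 2.31 and 2.32. *CESA1*, *CESA3* and *CESA6* were then at 1.07, 0.95 and 1.14.

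**Figure D4:**
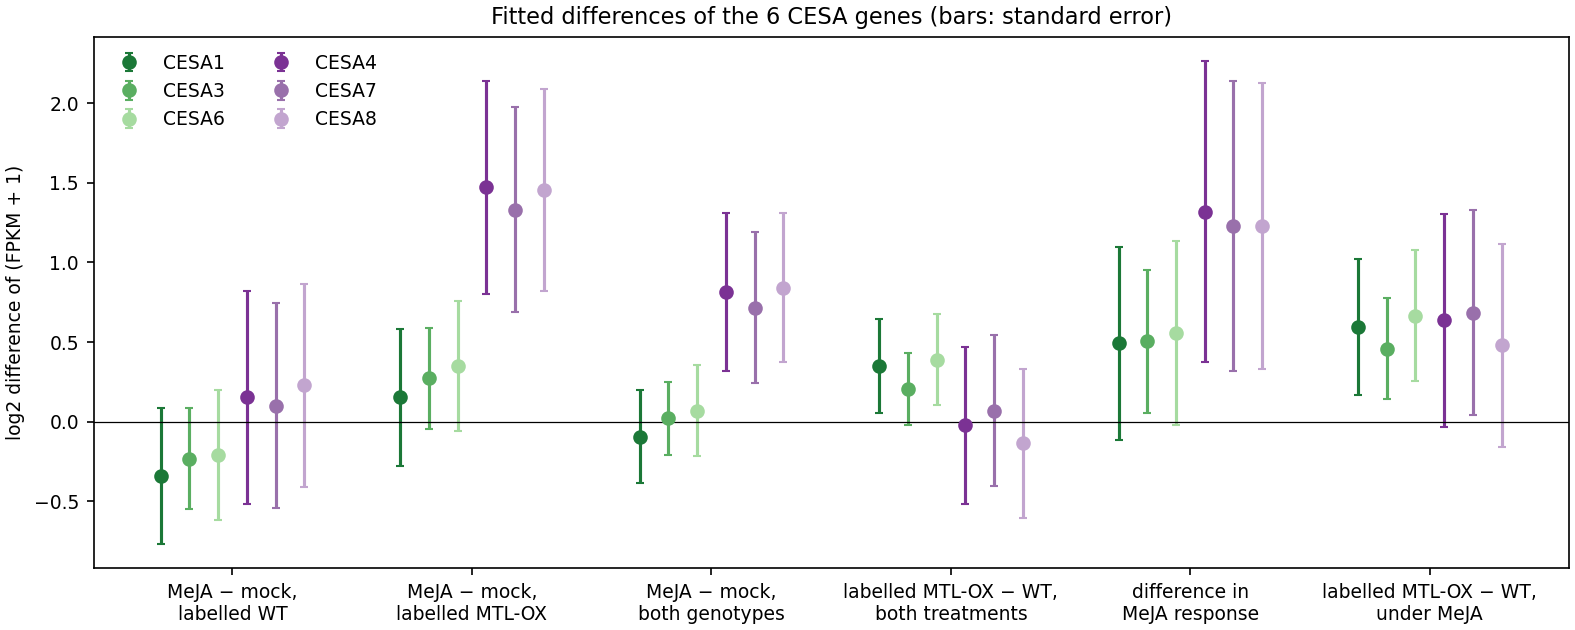
Fitted log2 differences of the 6 *CESA* genes in the 6 comparisons (points) with their standard errors (bars). The secondary wall genes have the largest values after MeJA in libraries labelled MTL-OX (1.33 to 1.47), all with standard errors over 0.6, and under MeJA all 6 genes lie between 0.46 and 0.68.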

How the data were processed

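Leaf mRNA of 8 samples was analysed. The authors aligned read pairs with TopHat2, estimated expression with Cufflinks and deposited, per sample, the FPKM of each gene with confidence bounds, without pooling replicates; the assembly is not given in the sources used here. How fragments shared by related *CESA* genes were divided was not tested. Depth was taken as implied fragments, the square of 2 FPKM over the distance to the upper bound; for values under 20 fragments, 79.9% to 81.1% came out whole within 0.02. These bounds cover counting error only.

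The 14922 genes whose FPKM averaged 1 or more entered a limma 3.58.1 fit (R 4.3.3) of log2(FPKM + 1), with 1 mean per group. The pseudocount understates changes of low genes. Effects over both genotypes or both treatments carried the second factor as a covariate. Benjamini-Hochberg adjustment covered all genes tested, and an adjusted p of at most 0.05 with a 2-fold change was a call. Only the fit of MeJA against mock over both labelled genotypes was tested on simulated data, with independent noise in each gene. The other fits were not tested in this way, nor was a library far from its replicate. The authors' own test was not rerun.

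Named genes were the 6 members, *LNJ* and the genes most like each set by Pearson's r, at most 2 identifiers each. The members and 10 pathway and marker lists were chosen with earlier results of these data known; no list could be matched to identifiers. Alternatives were another pseudocount, no or a higher filter, median-ratio scaling, voom on implied fragments, a stricter threshold, fewer libraries, the genotypes of the table names and each library left out. The set ratio, its alternatives and the comparison of genotypes under MeJA were added after seeing the data.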

Additional observations from a re-analysis of the deposited data

How the results depend on the processing

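Of 252 fitted values of the 6 members under settings other than leaving out a library, 230 kept direction and side of the threshold and 22 changed sign, none of them past the threshold. Many of the 230 could not have changed direction. No or a higher filter, the stricter threshold and fits of only the libraries compared leave the log2 values as they are. Under the stricter threshold no gene could become a call either. The genotypes of the table names turned the differences between genotypes of *CESA1*, *CESA3*, *CESA6*, *CESA4*, *CESA7* and *CESA8* to -0.35, -0.21, -0.39, 0.023, -0.069 and 0.14 over both treatments and to -0.60, -0.46, -0.67, -0.64, -0.68 and -0.48 under MeJA, and the differences in response to -0.49, -0.51, -0.56, -1.32, -1.23 and -1.23, by construction. Scaling by median ratios turned *CESA1* after MeJA in libraries labelled MTL-OX to -0.073, *CESA3* and *CESA6* after MeJA over both genotypes to -0.11 and -0.049, and *CESA4* between genotypes to 0.10.

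The number of all genes called was less stable. In the order MeJA labelled WT, MeJA labelled MTL-OX, MeJA over both, genotype over both, difference in response and genotype under MeJA, it was 5, 11, 28, 165, 2 and 8. An adjusted p of at most 0.001 gave 0, 0, 0, 7, 0 and 1, and voom gave 2, 17, 47, 534, 0 and 5. Fits of only the libraries compared gave 19 for MeJA labelled WT, 4 for MeJA labelled MTL-OX and 21 for genotype under MeJA. A pseudocount of 0.1 gave 0, 4 and 0 for MeJA labelled WT, MeJA labelled MTL-OX and the difference in response, and a mean FPKM of at least 5 gave 0, 1 and 0 for these and 2 for genotype under MeJA. Without a filter, MeJA labelled MTL-OX gave 6, MeJA over both 0, genotype over both 12 and the difference in response 8. Scaling by median ratios gave 52 for genotype over both. The cause was not tested.

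Leaving out 1 library at a time gave 1 to 13, 1 to 43, 2 to 31, 11 to 704, 0 to 10 and 4 to 18 calls in the same order, the 704 without mock replicate 6 labelled MTL-OX, and no member was called in any of these fits. After MeJA in libraries labelled WT the members ranged from -0.82 to 0.14 (*CESA1*), -0.54 to 0.074 (*CESA3*), -0.64 to 0.22 (*CESA6*), -0.34 to 0.65 (*CESA4*), -0.34 to 0.54 (*CESA7*) and -0.13 to 0.59 (*CESA8*). In libraries labelled MTL-OX the primary wall genes ranged from -0.43 to 0.73, -0.18 to 0.72 and -0.24 to 0.94, and over both genotypes from -0.38 to 0.15, -0.21 to 0.19 and -0.22 to 0.30. Between genotypes over both treatments the secondary wall genes ranged from -0.34 to 0.55, -0.24 to 0.62 and -0.45 to 0.42, and the differences in response of *CESA1* and *CESA6* from -0.089 to 1.07 and -0.030 to 1.14. The log2 difference of the set ratio between MeJA and mock ranged from 0.51 to 0.97.

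No paired analysis was possible because the labels number the samples from 1 to 8 and no number is shared by 2 groups. With 2 libraries a group and 1 mock library far from the other, depth was not the limit for these genes.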
